A study of Mus musculus with 8 samples.

Results

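The genes described here encode the chaperone machinery that holds steroid receptors ready for hormone, the co-chaperone Fkbp5, and receptor coactivators. They are Hsp90aa1, Hsp90ab1, Hspa8, Ptges3, Stip1, Bag1, Fkbp4, Fkbp5, Ncoa1 and Ncoa3. They were chosen by name, with earlier results of these data known. Each was read at every probe set that the array annotation gives to that gene alone. Of the 10 genes, 8 had such probe sets, 22 in all, out of 18193 genes measured in this way. Hsp90ab1 had none, and the 2 probe sets naming Ptges3 also name Ptges3-ps, so no value is given for either gene. The samples were dorsal skin of mouse embryos of strain B6D2/F1, taken by caesarean section at embryonic day 18.5. In the GR-/- group (4 arrays, numbered 5, 17, 25 and 26 in the labels) the embryos lacked the glucocorticoid receptor (GR), and in the GR+/+ group (4 arrays, numbered 4, 6, 28 and 29) their littermates had it. How the GR allele was disrupted, which embryos shared a litter, and whether each array held RNA of a separate embryo are not stated in the labels, so p-values measure the spread between these samples.

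GR is a transcription factor that waits in the cytoplasm, bound to chaperones, until a glucocorticoid enters the cell. In the textbook cycle the chaperone Hspa8 (constitutive HSP70) delivers the receptor to HSP90, the adaptor Stip1 bridges the pair, and the co-chaperone Ptges3 stabilises the mature, hormone-binding complex. The immunophilins Fkbp5 and Fkbp4 compete for the same place on HSP90: Fkbp5 lowers the receptor's affinity for hormone, and Fkbp4 links the complex to the motor that carries it to the nucleus. Fkbp5 is itself a widely used glucocorticoid-induced gene, which closes a feedback loop on the receptor. In the nucleus the receptor recruits coactivators of the p160 family, among them Ncoa1 and Ncoa3. In skin, glucocorticoids are known to restrain inflammation and to promote the last steps of barrier formation before birth.

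The values were log2 expression levels made with RMA, which equalises the arrays, and with 4 arrays per group the number of arrays sets the precision. Array medians lay between 6.46 and 6.52. Nr3c1, the gene of GR, was lower in every GR-/- array than in every GR+/+ array at 3 of its 6 probe sets. The brightest of these read 9.21 to 9.62 log2 in GR-/- arrays and 10.24 to 10.32 in GR+/+ arrays. The labelled tissue carried its markers: the mean of 10 measured keratinocyte markers was 12.56 to 12.86 log2 in GR-/- arrays and 12.52 to 12.96 in GR+/+ arrays. Of these 10 markers 2 were higher (Trp63 by 0.60 log2 and Col17a1 by 0.59) and 1 lower (Lor, -0.48) by limma. Xist, the RNA of the inactive X chromosome, was above 12 in GR-/- 17 and GR+/+ 6 alone, so that each genotype held 1 array of this kind. The mean of 18 skeletal muscle markers was 11.51 to 12.16 in GR-/- arrays and 12.20 to 12.32 in GR+/+ arrays, with GR-/- 17 the highest of the GR-/- arrays. Of those 18 markers 4 were lower in GR-/- skin and 0 higher by limma. Of 6 melanocyte markers 2 were higher, with list means of 8.63 to 9.29 in GR-/- arrays and 8.01 to 8.39 in GR+/+ arrays. In whole skin, fewer cells of a type and less RNA per cell cannot be told apart.

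Of the 8 measured genes, Fkbp5 fell in GR-/- skin and the other 7 were not past the threshold, an adjusted p of 0.05 over all genes in limma. Over all genes 2.96% were called in either direction, 1.4% higher and 1.56% lower, and 1 call among 8 genes is too few to read against those shares. At an unadjusted p below 0.05, 2 of the 8 were higher and 4 lower, against 21.6% of all genes in either direction. The groups did not overlap for Fkbp5, Hspa8 and Ncoa1, which is 3 of 8 genes, against 13% of all genes. The median log2 difference, GR-/- minus GR+/+, was -0.10 over the 8 genes and 0.02 without Fkbp5, beside -0.0045 over all genes. These values are for the probe set of each gene with the highest mean over the 8 arrays. All 8 of these probe sets were bright, with 70.4% to 99.5% of all probe sets dimmer, while the shares over all genes include dim ones. Those shares are therefore not taken from genes of like signal.

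**Figure D1:**
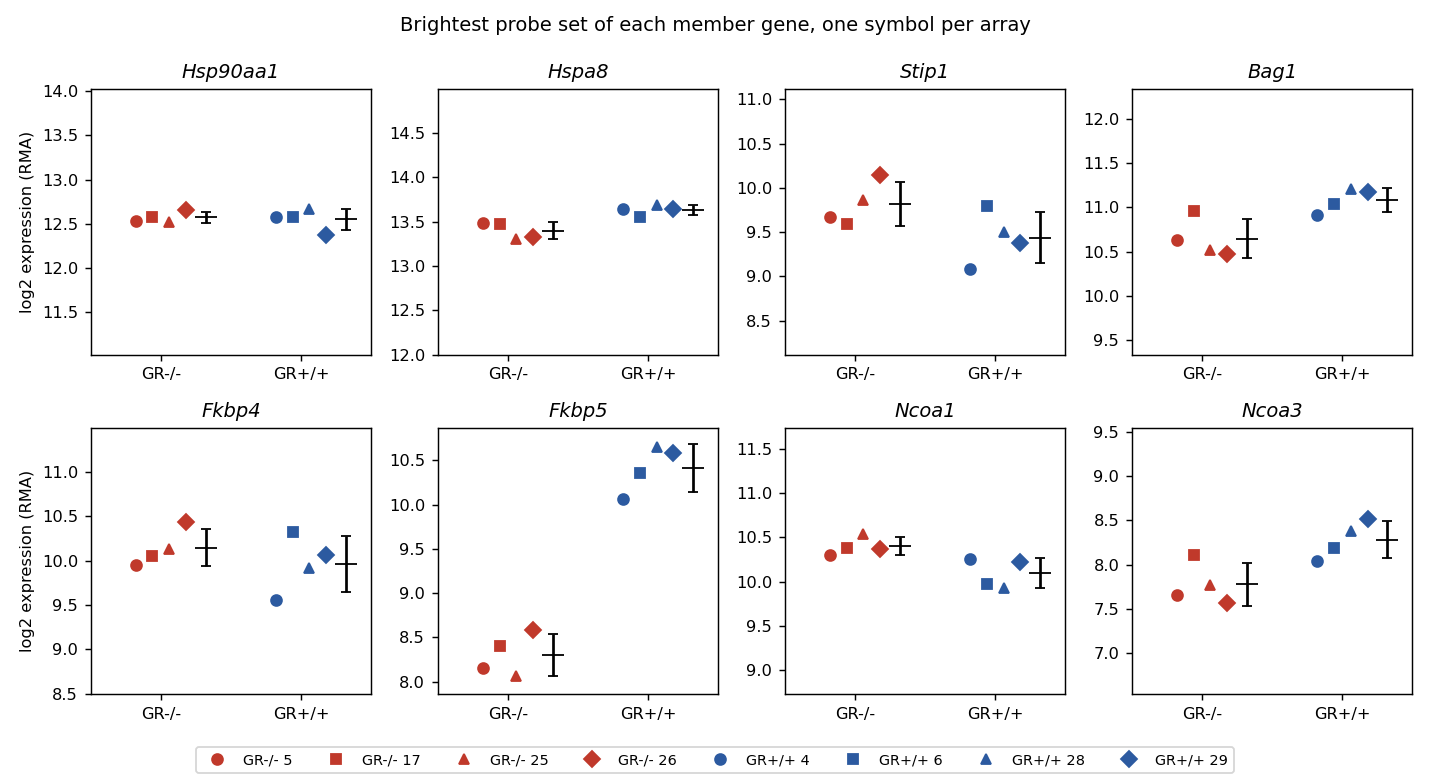
Log2 expression (RMA) at the brightest probe set of each of the 8 measured genes, one symbol per array, GR-/- (red) left and GR+/+ (blue) right, with mean and SD of 4 arrays as black bars; every panel spans the same number of log2 units. Fkbp5 lies at 8.07 to 8.58 in GR-/- arrays and at 10.06 to 10.66 in GR+/+ arrays, while the other genes move by less.

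Fkbp5, the immunophilin co-chaperone, read 8.15, 8.40, 8.07 and 8.58 log2 in GR-/- 5, 17, 25 and 26, against 10.06, 10.36, 10.66 and 10.58 in GR+/+ 4, 6, 28 and 29. The highest GR-/- array stood 1.48 below the lowest GR+/+ array, and no array was out of place. Fkbp5 fell by 2.11 ± 0.16 log2 (SE, n = 4 per group), which is 4.33-fold, with a 95% interval of -2.47 to -1.76 and a limma adjusted p of 0.000922. It ranked 19 from the lowest by log2 difference and 5 by p-value among 18193 genes. At its second brightest probe set Fkbp5 read 7.03, 7.06, 7.12 and 7.43 in GR-/- 5, 17, 25 and 26, and 8.01, 8.12, 8.08 and 7.76 in GR+/+ 4, 6, 28 and 29. Here too the groups did not overlap, with a gap of 0.34. The fall there was 1.78-fold, a log2 difference of -0.83 ± 0.12 with adjusted p = 0.0151 over all probe sets, and this call was lost without GR-/- 25 (adjusted p = 0.061) and without GR+/+ 28 (0.0518) among 8 fits that each left out 1 array. The third probe set, with only 1.09% of all probe sets dimmer than it, read 3.34 to 3.57 in GR-/- arrays and 3.30 to 3.60 in GR+/+ arrays, so a difference was not detectable at that signal. At the brightest probe set the call held in all 8 such fits, with log2 differences from -2.23 to -2.03.

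The mean of the skeletal muscle markers did not overlap between the genotypes, although 14 of the 18 markers were not past the threshold. GR-/- 17, whose marker mean of 12.16 lay next to the lowest GR+/+ mean of 12.20, had Fkbp5 at 8.40, within the range of the other GR-/- arrays. With the marker mean as a covariate the log2 difference of Fkbp5 was -1.98 ± 0.27 and the adjusted p was 0.0583, so the call ended while the size of the fall changed little. In that fit 12 genes were called, against 539 without the covariate. GR-/- 17 is a single array, and the part of muscle in the fall of Fkbp5 was not tested.

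The annotated promoters of Fkbp5, of its paralogue Fkbp4 and of Stip1 are printed to set beside each other the gene that fell and 2 partners that were not called. RefSeq (GRCm38.p6) gave promoters for 6 of the 10 genes, each covering 250 bases before and 50 after the annotated start. In Fkbp5 (chr17:28486100-28486399, minus strand) capitals mark CCAAT and GGGCGG boxes on either strand. In Fkbp4 (chr6:128438607-128438906, minus strand) they mark GAANNTTC, a pair of heat shock factor units. In Stip1 (chr19:7039977-7040276, minus strand) they mark TATAAA and CCAAT boxes.
Fkbp5: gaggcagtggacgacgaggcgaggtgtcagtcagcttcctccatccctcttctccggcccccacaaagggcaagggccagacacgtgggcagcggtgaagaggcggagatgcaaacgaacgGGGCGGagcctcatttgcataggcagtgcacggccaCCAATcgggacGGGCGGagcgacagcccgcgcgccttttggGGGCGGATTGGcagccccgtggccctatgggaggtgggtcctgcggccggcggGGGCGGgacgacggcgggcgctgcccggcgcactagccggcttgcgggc
Fkbp4: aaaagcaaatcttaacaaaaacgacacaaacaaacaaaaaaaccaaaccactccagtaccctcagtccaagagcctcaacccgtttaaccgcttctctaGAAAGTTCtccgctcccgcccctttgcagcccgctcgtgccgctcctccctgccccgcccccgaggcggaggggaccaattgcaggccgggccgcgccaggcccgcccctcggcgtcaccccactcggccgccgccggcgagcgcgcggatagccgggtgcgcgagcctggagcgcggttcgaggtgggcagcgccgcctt
Stip1: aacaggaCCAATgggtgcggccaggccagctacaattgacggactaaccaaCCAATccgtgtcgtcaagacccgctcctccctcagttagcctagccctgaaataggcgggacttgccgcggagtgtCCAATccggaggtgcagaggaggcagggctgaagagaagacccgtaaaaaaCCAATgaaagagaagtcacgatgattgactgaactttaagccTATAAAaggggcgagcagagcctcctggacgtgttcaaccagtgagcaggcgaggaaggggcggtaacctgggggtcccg

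The Fkbp5 window had 70.7% G and C, with 2 CCAAT and 4 GGGCGG boxes and no TATAAA. One CCAAT box, written ATTGG on this strand, lies end to end with a GGGCGG box. CCAAT was present in 37.4%, GGGCGG in 35.7% and TATAAA in 13.6% of all 32851 promoters of this length, counting both strands. The receptor's element is a pair of AGAACA hexamers facing each other across 3 bases of any letter. The full pair was in 0 of the 6 promoters and in 3 of all, and the looser pair of GNACA pentamers at the same spacing, which every full pair contains, was in 0 of the 6 and in 0.475% of all. A single AGAACA hexamer on either strand, also part of every full pair, was found once in Ncoa1 alone of the 6, and in 19% of all. The Fkbp4 window had 65.3% G and C and 1 GAANNTTC, which 7.86% of all promoters held, starting 151 bases before the gene. It also had 3 GGGCGG boxes and 1 CCAAT box, left in small letters above. The Stip1 window had 56.3% G and C, a TATAAA starting 30 bases before the gene and 4 CCAAT boxes. Its 1 GGGCGG box is also left in small letters. GGGCGG was thus not particular to Fkbp5 and was found in each of the 6 promoters. These matches describe the letters of the windows and were not tested against the expression values. Sequence outside the windows was not searched, so a missing element here says nothing about the rest of the gene.

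Fkbp4, the paralogue that competes with Fkbp5 on HSP90, read 9.95, 10.06, 10.13 and 10.43 log2 in GR-/- 5, 17, 25 and 26, against 9.56, 10.32, 9.91 and 10.06 in GR+/+ 4, 6, 28 and 29. The groups overlapped, with GR+/+ 4 and 28 below every GR-/- array and GR-/- 26 above every GR+/+ array. The log2 difference was 0.18 ± 0.17 with a 95% interval of -0.20 to 0.55 (limma adjusted p = 0.601). Its second probe set gave -0.34 ± 0.16 (adjusted p = 0.265) and the dimmest -0.23 ± 0.13 (adjusted p = 0.358), so the sign depended on the probe set. The dimmest passed the threshold without GR-/- 17 (-0.37, adjusted p = 0.0374) and in none of the other 7 fits that left out 1 array.

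Whether the genotype difference of Fkbp5 differed from that of its partners was tested in each array as the log2 value of Fkbp5 minus that of the other gene. For Fkbp4 this quantity was -1.84 ± 0.17 in GR-/- arrays and 0.45 ± 0.30 in GR+/+ arrays (SD, n = 4 each). The genotypes differed by -2.29 ± 0.17 (SE) in it, with an exact two-sided permutation p of 0.0286, the smallest that 4 against 4 arrays can give. All 7 partners gave that p, which was 0.0286 also after Benjamini-Hochberg adjustment over the 7 pairs. The differences ran from -2.49 against Stip1 to -1.61 against Ncoa3. In each pair all 4 GR-/- arrays lay below all 4 GR+/+ arrays. The 7 tests share the same Fkbp5 values, whose groups alone lay 1.48 log2 apart. The partners' own differences ran from -0.50 to 0.38, so the shared p adds little to the fall of Fkbp5 itself.

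Hsp90aa1, the stress-inducible cytosolic HSP90, showed different values at different probe sets. At the brightest it read 12.53, 12.58, 12.53 and 12.65 in GR-/- 5, 17, 25 and 26, and 12.57, 12.58, 12.67 and 12.38 in GR+/+ 4, 6, 28 and 29. These values are close together, and the log2 difference of 0.02 had a 95% interval of -0.16 to 0.21 (adjusted p = 0.914 over genes). At the second it read 12.18, 12.12, 12.44 and 12.46 in GR-/- 5, 17, 25 and 26, and 11.63, 11.93, 11.55 and 11.25 in GR+/+ 4, 6, 28 and 29. Every GR-/- array was above every GR+/+ array there, by a gap of 0.19. Hsp90aa1 rose at this probe set by 0.71 ± 0.15 log2, 1.63-fold, with adjusted p = 0.0372 over all probe sets. The call held without GR-/- 17 or GR+/+ 6 and was lost without GR-/- 5, 25 or 26 or GR+/+ 4, 28 or 29, where its adjusted p lay between 0.0686 and 0.125. The third probe set gave 0.20 ± 0.09 (adjusted p = 0.258), and the remaining pair were dim, below 4.6 in every array, with log2 differences of 0.03 and -0.19.

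Hspa8, the constitutive HSP70, was read at its brightest probe set at 13.49, 13.48, 13.31 and 13.33 in GR-/- 5, 17, 25 and 26, and at 13.64, 13.56, 13.69 and 13.64 in GR+/+ 4, 6, 28 and 29. The groups did not overlap, with a gap of only 0.07. The log2 difference was -0.23 ± 0.08, with a 95% interval of -0.40 to -0.06 (adjusted p = 0.125). The name of that probe set ends in _x_at, which marks probes that can also take up related transcripts. The next probe sets gave 0.06, under a name with the same ending, and -0.07, under a name without it. The dimmest of the 4 read 5.44, 5.45, 5.38 and 5.68 in GR-/- 5, 17, 25 and 26, and 6.16, 6.62, 6.02 and 5.89 in GR+/+ 4, 6, 28 and 29. Hspa8 fell there by 0.68 ± 0.15 log2, or 1.60-fold (adjusted p = 0.0458 over all probe sets), in GR-/- arrays that all lay below the GR+/+ arrays. That call, too, held without GR-/- 17 or GR+/+ 6 and was lost without any one of the other 6 arrays, where its adjusted p lay between 0.0712 and 0.143.

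Of the 22 probe sets, 1 was called higher and 3 lower, against 3.85% of all probe sets called in either direction (2.22% higher and 1.63% lower), and in 6 the groups did not overlap, against 12.6% of all. The called ones were a pair of Fkbp5 and 1 each of Hsp90aa1 and Hspa8. Without 1 array the number called ran from 1, without GR-/- 25 or without GR+/+ 28, to 7 without GR-/- 17. It was 0 with the muscle marker mean as a covariate. Probe sets of the same gene differed in sign for 4 of the 6 genes that had more than 1. The labels and annotation do not state which part of each transcript a probe set reads. A test of each probe set against the brightest of its gene, added after the values were seen, gave the smallest possible exact permutation p of 0.0286 in 5 of 14 comparisons. After adjustment over the 14 comparisons, those exact permutation tests had p = 0.08, so none passed. With that smallest p, passing would need most of the 14 to reach it, so the result does not show that probe sets agree. Those 5 comparisons concerned both dimmer probe sets of Fkbp5, the second and the dimmest of Hsp90aa1 and the second of Ncoa3. Their log2 differences from the brightest, GR-/- minus GR+/+, were 1.28, 2.03, 0.69, -0.21 and 0.89 in that order. The dimmest probe sets of Fkbp5 and Hsp90aa1 read at most 3.60 and 4.09 in any array. At so low a signal the 2.03 and -0.21 do not show that those probe sets disagree about the transcript.

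**Figure D2:**
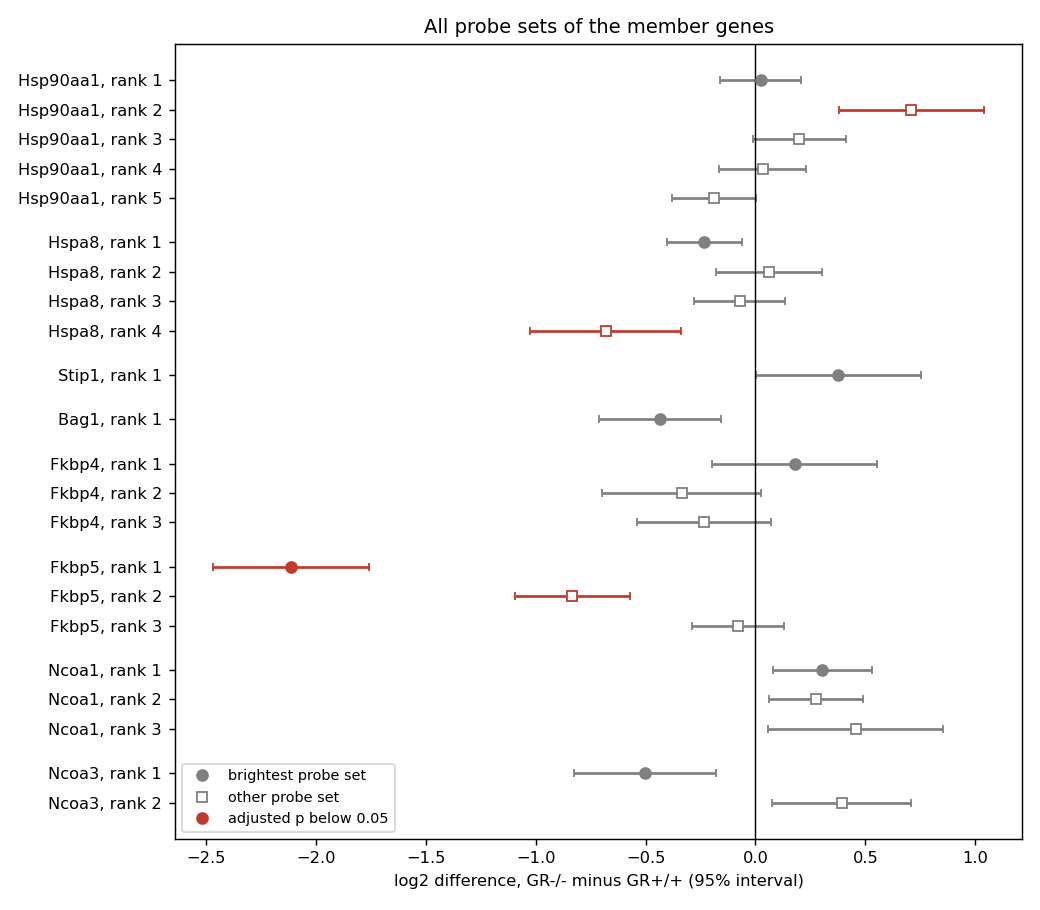
Log2 difference, GR-/- minus GR+/+, with its 95% interval for the 22 probe sets of the 8 genes, ranked within each gene by brightness; filled circles are the brightest probe set, open squares the others, and red marks an adjusted p below 0.05 over all probe sets. The red points are Fkbp5 at -2.11 and -0.83, Hspa8 at -0.68 and Hsp90aa1 at 0.71.

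Stip1, the adaptor between HSP70 and HSP90, read 9.67, 9.59, 9.86 and 10.15 in GR-/- 5, 17, 25 and 26, against 9.09, 9.79, 9.50 and 9.38 in GR+/+ 4, 6, 28 and 29. GR+/+ 6 lay inside the GR-/- range and the other GR+/+ arrays below it. The log2 difference was 0.38 ± 0.17 (95% interval 0.00 to 0.75, adjusted p = 0.229). GR-/- 26 was the highest and GR+/+ 4 the lowest array for both Stip1 and Fkbp4.

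Bag1, a nucleotide exchange factor that releases clients from HSP70 and is known to bind GR, read 10.64, 10.96, 10.52 and 10.47 in GR-/- 5, 17, 25 and 26, against 10.91, 11.03, 11.21 and 11.18 in GR+/+ 4, 6, 28 and 29. All GR-/- arrays but number 17 lay below all GR+/+ arrays. The log2 difference was -0.43 ± 0.12, with a 95% interval of -0.71 to -0.16 and adjusted p = 0.0857. Without GR-/- 17 it was -0.54 ± 0.10 with adjusted p = 0.0156. This was the only call of Bag1 among 8 fits that each left out 1 array. Over all genes 1640 were called in that fit, against 539 with all arrays.

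Ncoa3, a coactivator with histone acetyltransferase activity, read 7.66, 8.12, 7.77 and 7.57 in GR-/- 5, 17, 25 and 26, against 8.04, 8.19, 8.38 and 8.51 in GR+/+ 4, 6, 28 and 29. Again GR-/- 17 alone lay within the GR+/+ range. The log2 difference was -0.50 ± 0.14 with adjusted p = 0.087, and -0.61 ± 0.12 with adjusted p = 0.0224 without GR-/- 17. Among 8 fits that each left out 1 array, Ncoa3 was called in that 1 only. The second probe set pointed the other way, with 7.06, 7.14, 7.54 and 7.60 in GR-/- 5, 17, 25 and 26 and 6.74, 7.02, 6.93 and 7.08 in GR+/+ 4, 6, 28 and 29. Its log2 difference was 0.39 ± 0.14 (adjusted p = 0.143). The mean of both Ncoa3 probe sets differed by -0.06 ± 0.10, so no direction is given for this gene.

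Ncoa1, the founding p160 coactivator, read 10.30, 10.38, 10.54 and 10.37 in GR-/- 5, 17, 25 and 26, against 10.26, 9.97, 9.92 and 10.22 in GR+/+ 4, 6, 28 and 29. The groups did not overlap, by a margin of 0.04. The log2 difference was 0.30 ± 0.10 (95% interval 0.08 to 0.53, adjusted p = 0.128), and the dimmer probe sets gave 0.27 ± 0.09 and 0.46 ± 0.18. The 3 probe sets thus had the same sign, and each missed the threshold over all probe sets, with adjusted p of 0.118, 0.132 and 0.172. The third was dim, at 4.12 to 4.83 in GR-/- arrays and 3.64 to 4.23 in GR+/+ arrays, and its groups overlapped.

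GR-/- 17 was the highest GR-/- array for Bag1 and for Ncoa3 at its brightest probe set, though not at the second Ncoa3 probe set. Several other measures also set it apart from GR-/- 5, 25 and 26. Its muscle marker mean was 12.16, against 11.51 to 11.80 in those 3 arrays, and its hair follicle marker mean 9.85 against 8.19 to 8.61. Its adipocyte marker mean was 9.35 against 7.41 to 8.33, and it was the only GR-/- array with high Xist. The adipocyte mean spread as widely among GR+/+ arrays, from 7.29 to 9.39, and GR+/+ 6 had high Xist too, so neither was particular to GR-/- 17. Among the GR-/- arrays, number 5 had the lowest muscle mean and the second highest Bag1. With the muscle mean, which did not overlap between the genotypes, as a covariate the log2 difference was -0.17 ± 0.18 for Bag1 (adjusted p = 0.818) and -0.12 ± 0.19 for Ncoa3 (adjusted p = 0.879). The second Ncoa3 probe set gave 0.42 ± 0.25 in that limma fit (adjusted p = 0.67 over all probe sets). The part of muscle or of the other measures in these differences was not tested.

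**Figure D3:**
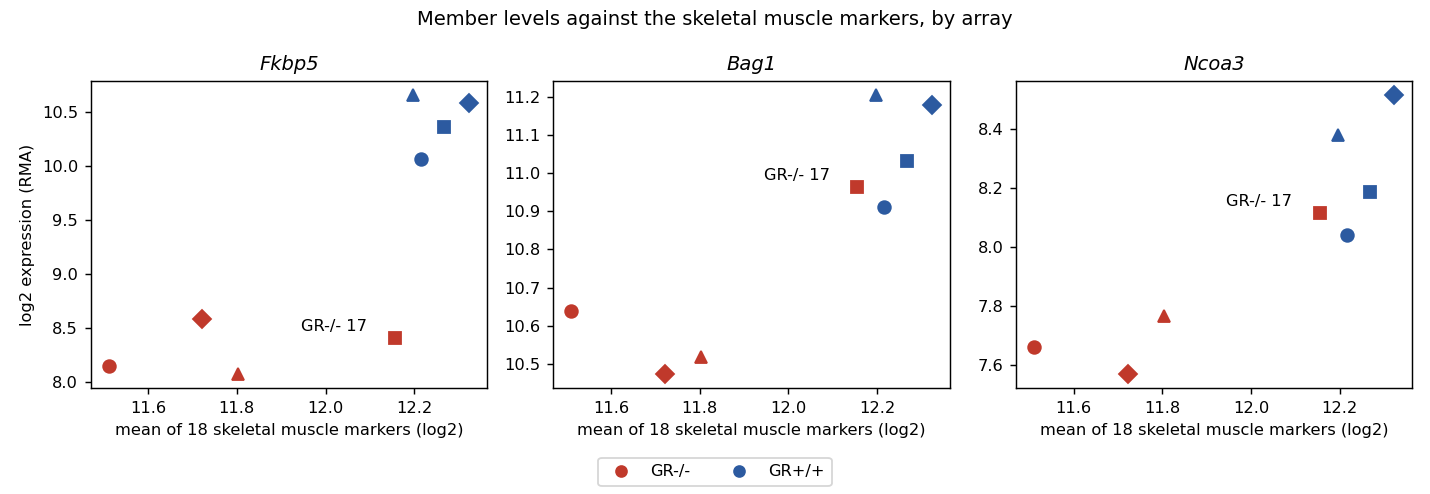
Log2 expression of Fkbp5, Bag1 and Ncoa3 at the brightest probe set (vertical axes) against the mean log2 level of 18 skeletal muscle markers (horizontal axes), one symbol per array, GR-/- in red and GR+/+ in blue. In Fkbp5, GR-/- 17 lies at 8.40 among the other GR-/- arrays, while in Bag1 (10.96) and Ncoa3 (8.12) it lies near the GR+/+ arrays.

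Beyond the named genes, 3 lists of related genes held 106 measured genes in all, of which 1 was higher and 0 were lower. In the list of other HSP90 and HSP70 chaperones, J-domain proteins and co-chaperones, 0 of 57 measured genes passed the threshold in limma, with 8 higher and 10 lower at an unadjusted p below 0.05 and a median log2 difference of -0.05. Over all genes 2.96% passed the threshold and 21.6% had an unadjusted p below 0.05. The smallest p was that of Sugt1, an HSP90 co-chaperone, at 10.50 ± 0.11 log2 in GR-/- arrays and 10.13 ± 0.13 in GR+/+ arrays (SD, n = 4 each), a difference of 0.37 ± 0.09 (SE, adjusted p = 0.0658). In the list of other FKBP and cyclophilin immunophilins, 0 of 15 passed in limma, with 0 higher and 3 lower at an unadjusted p below 0.05 and a median of -0.10. The smallest p there was that of Ppib, a cyclophilin of the endoplasmic reticulum, at -0.27 ± 0.11 (adjusted p = 0.184).

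Among receptor coregulators 1 of 34 passed, 2.94% of the list beside 2.96% of all genes, with 4 higher and 0 lower at an unadjusted p below 0.05. Med14, the subunit that joins the parts of the Mediator complex and contacts nuclear receptors, read 9.73, 9.72, 9.91 and 9.95 in GR-/- 5, 17, 25 and 26, against 9.35, 9.30, 9.35 and 9.32 in GR+/+ 4, 6, 28 and 29. The groups did not overlap, and the GR+/+ arrays lay closer to each other than the GR-/- arrays did. Med14 rose by 0.50 ± 0.08 log2 (SE, adjusted p = 0.0182). The call was lost without GR-/- 25, GR-/- 26, GR+/+ 28 or GR+/+ 29 (adjusted p of 0.0517 to 0.075) and with the muscle covariate (0.45 ± 0.14, adjusted p = 0.341). Of its other 4 probe sets, 1 was called, also higher (0.94 ± 0.18, adjusted p = 0.0321 over all probe sets). The median of the coregulator list was 0.05. Of 5 measured steroid receptors Nr3c1 was lower and the other 4 were not past the threshold.

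**Figure D4:**
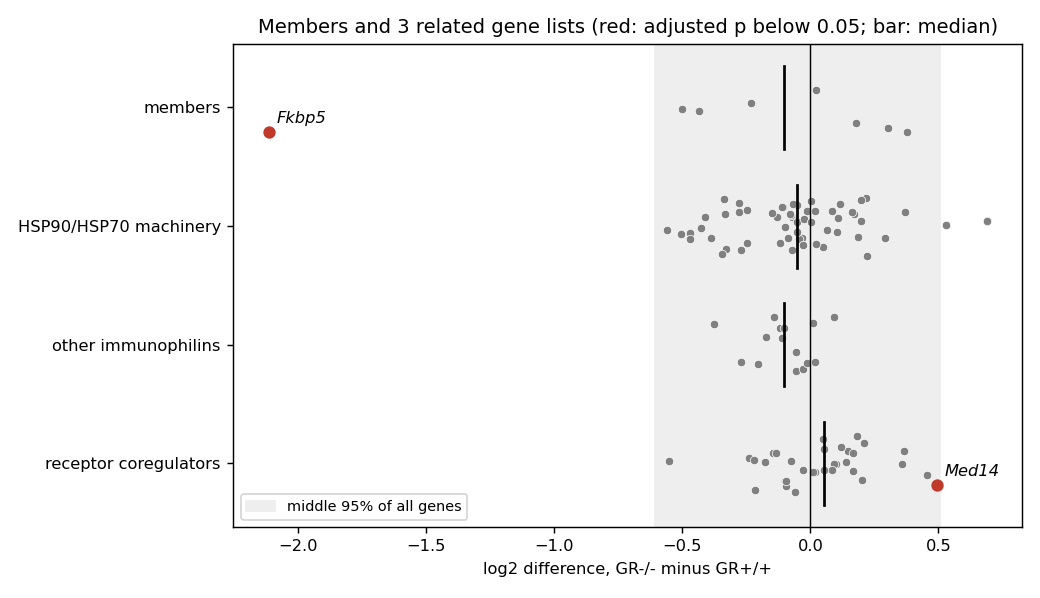
Log2 difference, GR-/- minus GR+/+, of the 8 measured members and of the genes in 3 related lists, one point per gene with random vertical spread, black bars for medians and grey shading for the middle 95% of all genes, from -0.61 to 0.51. Fkbp5 (-2.11) and Med14 (0.50) are the points past the threshold.

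The genes whose profile over the 8 arrays lay nearest to that of Fkbp5 were found by the root mean square difference of log2 values, each gene centred on its own mean. They were Krt78 (0.22 log2), Adh6b (0.30), Serpinb6c (0.31), Csf2rb (0.34) and Gcsam (0.35). Krt78, a type II keratin, read 8.83, 8.81, 8.93 and 9.11 in GR-/- 5, 17, 25 and 26, and 11.10, 10.77, 11.48 and 11.04 in GR+/+ 4, 6, 28 and 29. Its log2 difference was -2.18, beside -2.11 for Fkbp5. Adh6b, of the alcohol dehydrogenase family, differed by -2.12, the serpin Serpinb6c by -1.97, the cytokine receptor beta chain Csf2rb by -1.66 and Gcsam by -1.82. Profiles chosen in this way share the step between the genotypes. None of the 5 is a chaperone or a coregulator of the lists above.

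**Figure D5:**
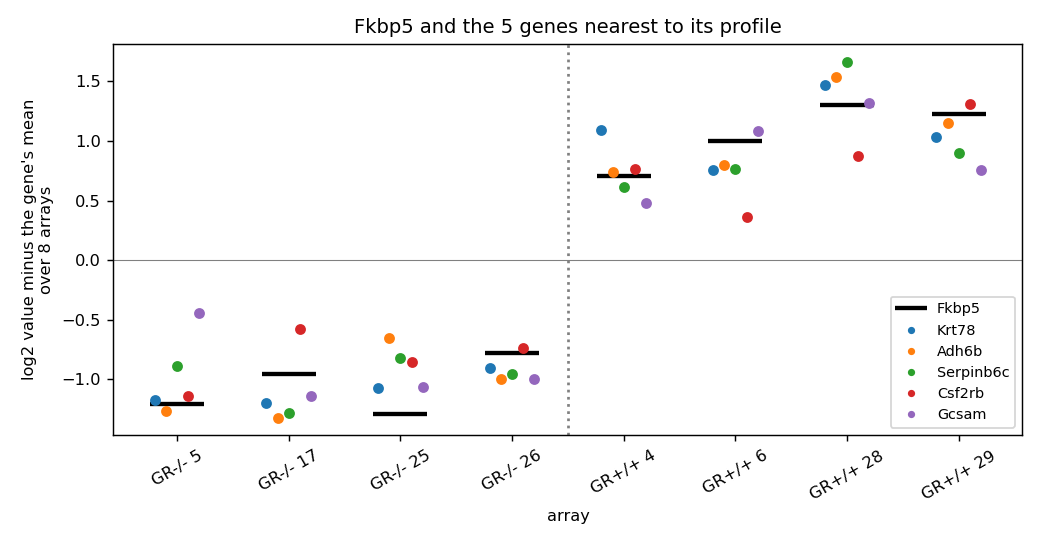
Log2 value minus the gene's own mean over 8 arrays (vertical axis) in each array (horizontal axis, GR-/- left and GR+/+ right) for Fkbp5 (black bars) and the 5 genes nearest to it (coloured points). All 6 genes lie below their own mean in the 4 GR-/- arrays and above it in the 4 GR+/+ arrays.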

How the data were processed

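The deposited values are log2 expression levels per probe set of a single-colour Affymetrix Mouse Genome 430 2.0 array, made by the authors with RMA per the submitters' processing notes; its version and probe set definition are not stated there. The method damps differences in very dim and very bright signals and would hide a shift of most transcripts. Of 45101 probe sets 64 controls were left out. Of the rest 34945 carried 1 gene symbol, 932 several and 9160 had none listed; 18032 of 18193 genes matched RefSeq (GRCm38.p6), used for names and promoters.

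All 45037 probe sets were fitted with limma 3.58.1 in R 4.3.3 (lmFit, eBayes, genotype as the only term, two-sided, Benjamini-Hochberg threshold 0.05). Each gene took its brightest probe set, with p-values adjusted over 18193 genes. The scripts were tested on simulated data. The members, lists and settings were chosen with earlier results of these data known. All members were named; in each related list, up to 4 called genes with the largest change or, with none called, that with the smallest p; and the 5 genes nearest to Fkbp5 in profile. Related genes without a probe set of their own were not analysed here.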

Additional observations from a re-analysis of the deposited data

Results flagged for a closer look

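Of 44 groups of 4 arrays tested over the 22 probe sets for a sample far from the others, 1 was marked, where chance marks about 1 in 20. It was Ncoa1 at its second probe set, where GR+/+ 29 read 9.76 log2 and the other GR+/+ arrays 9.43 to 9.47. The gap took up 0.885 of the range of that group.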

How the results depend on the processing

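Fkbp5 kept its direction in all 17 alternatives and its call in 16 of them, with log2 differences from -2.23 to -1.01, the last from the mean of its 3 probe sets. The exception was the muscle marker covariate (-1.98, adjusted p = 0.0583, against 0.000309 to 0.00592 in the other 16). The 7 pair differences against Fkbp5 were negative throughout, from -2.63 to -1.53 without 1 array and from -2.49 to -0.57 with a further quantile normalization, the mean of all probe sets or no _x_at and _s_at probe sets. Their exact p of 0.0286 is the smallest possible in each, so it does not grade them, and they were not run with the muscle covariate or array weights. The number of member genes called was 4 with array weights (Fkbp5, Bag1, Ncoa3 and Hspa8), 0 with the muscle covariate, and 1 to 3 without 1 array, the 3 without GR-/- 17. The number of member probe sets called was 7 with array weights, 0 with the muscle covariate, 1 at a threshold of 0.01 and 1 to 7 without 1 array. Over all genes 1944 were called with array weights, 884 with the mean of all probe sets, 12 with the muscle covariate, 46 at a threshold of 0.01 and 79 to 1640 without 1 array, against 539. Of the uncalled genes, Fkbp4 changed sign with the mean of its probe sets (-0.13), and Hsp90aa1 ran from -0.034 to 0.064 without 1 array, being negative without GR-/- 26 (-0.0037) and without GR+/+ 29 (-0.034). No analysis paired by litter was possible because the labels do not state which embryos shared a litter. The label number below 10 as a term gave Fkbp5 -2.19 (adjusted p = 0.000939), and the Y-linked Eif2s3y level as a covariate gave -2.12 (adjusted p = 0.00387). Dim probe sets, of Fkbp5, Hsp90aa1 and Ncoa1 among others, limit what can be seen there.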
